A study of Mus musculus with 4 samples.

Results

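The 36 genes described here encode the aminoacyl-tRNA synthetases of the mouse, 20 that act in the cytosol and 16 that act in mitochondria. They were taken by symbol from a fixed list of cytosolic and mitochondrial synthetases, and all 36 were found among the 23366 gene symbols of the read-count files. Each was measured in 4 RNA-seq libraries of mouse R1 embryonic stem cells (strain 129X1 x 129S1), which were kept on gelatin with serum and LIF. In 2 control libraries the cells had received a non-targeting hairpin, and in 2 knockdown libraries a short hairpin against Cyrano, a long noncoding RNA with a site for the microRNA miR-7. All 4 cultures therefore carried the same hairpin vector, with its fluorescent and puromycin markers, and were enriched for transfected cells by drug or by sorting. The labels do not say which culture was enriched in which way, and the labels give no further allele or agent. The comparison asks how the transcripts of the tRNA charging enzymes differ once Cyrano is lowered.

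Aminoacyl-tRNA synthetases join each amino acid to its own tRNA and so set the genetic code. Cytosolic and mitochondrial protein synthesis mostly use separate enzymes, both encoded in the nucleus. Gars, for glycine, and Kars, for lysine, make the enzymes of both compartments from the same gene, and Eprs charges both glutamate and proline. A group of the cytosolic enzymes is held in a multisynthetase complex by the scaffold proteins AIMP1, AIMP2 and AIMP3. When amino acids run short, uncharged tRNA activates the kinase GCN2, and the transcription factor ATF4 then induces many cytosolic synthetase genes.

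The libraries held 16854403 and 19138196 gene counts in the controls and 22321102 and 20761783 after knockdown. Cyrano, listed as 1700020I14Rik, stood at 24.8 and 15.2 CPM in the controls and at 3.99 and 3.16 CPM in the knockdown libraries, where CPM is counts per 1000000 counts after scaling for library composition. Here and below, fold changes are knockdown over control with their standard error (SE), and adjusted p values come from edgeR's quasi-likelihood test with Benjamini-Hochberg adjustment. For Cyrano the log2 fold change came to -2.48 ± 0.30, at an edgeR adjusted p of 0.0070, and it was not called when control 1 (adjusted p = 0.12) or control 2 (0.057) was left out. Pou5f1, a defining gene of the labelled stem cells, stood at 930 to 1051 CPM. Of the 7 stem cell markers, none was called by edgeR. In edgeR 2 had an unadjusted p under 0.05, both lower, beside 5.43% of all tested genes in that direction. Both knockdown libraries lay below both controls in 4 markers and above them in 2, beside 21.3% and 22.3% of all genes. Nanog was at 216 and 228 CPM in the controls and 129 and 133 CPM after knockdown (log2 fold change -0.76 ± 0.14, edgeR adjusted p = 0.070). Esrrb was at 1053 and 1220 CPM in the controls and 917 and 869 CPM after knockdown (-0.35 ± 0.15, edgeR adjusted p = 0.37). Of 7 fibroblast markers, Col3a1, Dcn, Lum and Postn had 0 reads in every library. The 2 that were tested summed to 40.5 and 23.6 CPM in the controls and 48.8 and 21.9 CPM after knockdown. Most of that sum was Thy1 (log2 fold change 0.20 ± 0.44). Col1a1 stood at 2.49 and 2.01 CPM in the controls and at 0.81 and 1.53 CPM after knockdown (-0.94 ± 0.55). The 6 primitive endoderm markers all had a positive log2 fold change, with a summed level of 98.0 and 116 CPM in the controls and 158 and 194 CPM after knockdown. Their median log2 fold change was 0.82, and none was called. In edgeR 4 had an unadjusted p under 0.05, beside 6.18% of all tested genes in that direction. In 5 both knockdown libraries lay above both controls, beside 22.3% of all genes. Pdgfra had the lowest p (1.10 ± 0.23, edgeR adjusted p = 0.093). The 5 tested of 6 trophectoderm markers summed to between 26.1 and 29.7 CPM. The part that such cells have in the synthetase values was not tested, and in bulk RNA fewer cells of a type and less RNA per cell cannot be told apart.

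Most synthetase transcripts had close to the same measured level in the knockdown and control libraries, and none of the 36 passed the test over all genes. All 36 passed the filter on low counts. At an adjusted p under 0.05, edgeR called 0.0833% of the 13199 tested genes (0.0379% higher and 0.0455% lower). DESeq2 called 1 member, Lars2, beside 1.38% of the 9872 genes to which it gave an adjusted p. With limma-voom 0 members were called, beside 0.0227% of the 13199. At an unadjusted p under 0.05 there were 2 members, Yars2 higher and Lars2 lower, beside 11.6% of all tested genes (6.18% higher and 5.43% lower). In 9 members the 2 groups did not overlap, 4 with both knockdown libraries above both controls and 5 with both below, where 43.5% of all genes did not overlap (22.3% above and 21.3% below). A log2 fold change within 1.25-fold of no change was found in 33 of 36 members, or 91.7%, and in 65.3% of all genes. The median standard error was 0.17 for the members and 0.22 for all genes.

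**Figure D1:**
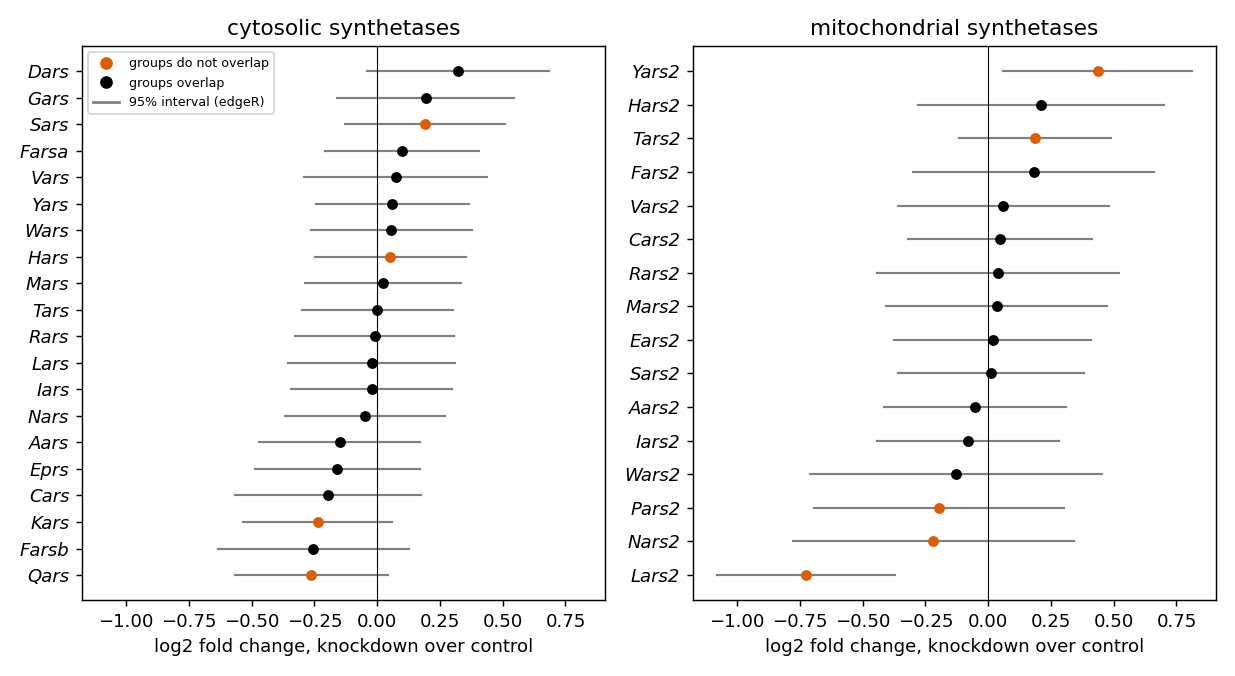
Log2 fold change of each synthetase, knockdown over control, with cytosolic enzymes on the left and mitochondrial enzymes on the right. Points are edgeR estimates from 2 libraries against 2, bars their 95% intervals, and orange marks members whose groups do not overlap. All cytosolic intervals include 0, whereas those of Yars2 and Lars2 do not.

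The fold changes of the cytosolic and mitochondrial classes overlapped widely. The 20 cytosolic members had 10 fold changes above 0 and 10 below, with a median log2 fold change of -0.0047, from -0.26 to 0.32. The 16 mitochondrial members had 10 above and 6 below, with a median of 0.026, or 0.0335 without Lars2. Over all tested genes the median was -0.0016. By structural class, the 18 class I enzymes had a median of 0.020 and the 17 class II enzymes one of 0.012, Eprs being left out because it holds a domain of each. The summed level of the cytosolic transcripts was 4465 and 4471 CPM in the controls and 4337 and 4521 CPM after knockdown, so the knockdown libraries lay on either side of the controls. Without Lars2, the mitochondrial transcripts summed to 546 and 555 CPM in the controls and 575 and 586 CPM after knockdown, both knockdown libraries being higher. The largest rises in mean CPM within that sum were those of Tars2 (122 to 138) and Yars2 (36.2 to 49.0). Of these 15 members, 10 had fold changes above 0 and 5 below. The class sums were compared as values only.

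The classes differed in level. Per kilobase of the longest annotated transcript, the median cytosolic member stood at 62.7 and 60.1 CPM per kilobase in the controls and at 64.2 and 61.9 after knockdown. The median mitochondrial member without Lars2 stood at 6.59 and 7.08 in the controls and at 6.71 and 7.51 after knockdown. Of 17 pairs that charge the same amino acid in the 2 compartments, 16 had more of the cytosolic transcript per kilobase. The mean ratio over the 4 libraries ran from 1.67 for threonine (Tars over Tars2) to 36.65 for asparagine (Nars over Nars2). Tars2, the mitochondrial threonine enzyme, had the highest level of that class after Lars2, at 35.97 CPM per kilobase, and Wars2, for tryptophan, had the lowest, at 1.89. Among the cytosolic members Gars was highest, at 155 CPM per kilobase, and Wars lowest, at 25.6. The exception among the pairs was leucine, where Lars over Lars2 gave a ratio of 0.024.

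**Figure D2:**
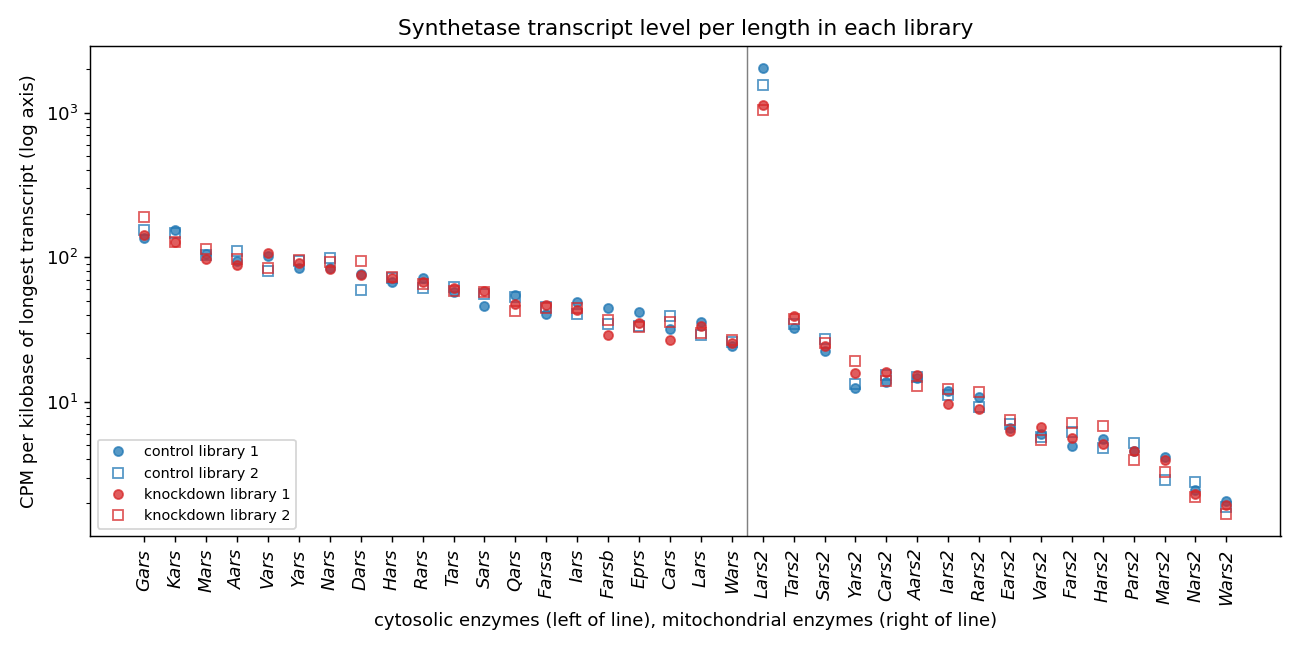
Transcript level of each synthetase in each library, in CPM per kilobase of the longest transcript on a log axis, ordered by level within the cytosolic (left) and mitochondrial (right) classes. Circles are libraries numbered 1 and squares libraries numbered 2, blue for control and red for knockdown. Lars2, at a mean of 1434, stands far above the other 15 mitochondrial members, which lie between 1.89 and 35.97.

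Among the 8 enzymes of the multisynthetase complex, 2 fold changes were above 0 and 6 below, with a median of -0.021, and none passed the test. Dars, which charges aspartate, had the highest fold change of the cytosolic class. Its level was 165 and 129 CPM in the controls and 164 and 204 CPM after knockdown. The 2 groups overlapped, since control 1 lay above knockdown 1 (log2 fold change 0.32 ± 0.17, SE; edgeR adjusted p = 0.48). It was 0.11 with a correction by length and GC content, 0.15 without control 2 and 0.16 without knockdown 2, and was then not the highest of the class. Qars, the glutamine enzyme, had the lowest, at 168 and 164 CPM in the controls and 145 and 131 CPM after knockdown. Both knockdown libraries were below both controls (-0.26 ± 0.14, adjusted p = 0.50). With that correction, or without control 1, control 2 or knockdown 2, Farsb or Cars was lower. Kars, which serves cytosol and mitochondria, was likewise lower in both knockdown libraries, at 310 and 306 CPM against 372 and 356 CPM (-0.24 ± 0.14, adjusted p = 0.53). The other 5 members of the complex overlapped between the groups. Their log2 fold changes were -0.16 for the bifunctional Eprs, -0.021 for Iars (isoleucine) and for Lars (leucine), -0.010 for Rars (arginine) and 0.023 for Mars (methionine).

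The 12 cytosolic members outside the complex had 8 fold changes above 0 and 4 below, with a median of 0.054. Gars, the second gene that serves both compartments, stood at 322 and 365 CPM in the controls and at 338 and 448 CPM after knockdown. The groups overlapped, with a log2 fold change of 0.19 ± 0.16 (SE; edgeR adjusted p = 0.68). Sars, which charges serine and also starts the making of selenocysteyl-tRNA, was higher in both knockdown libraries, at 207 and 205 CPM against 164 and 198 CPM (0.19 ± 0.15, adjusted p = 0.65). For Hars, the histidine enzyme, the 2 groups lay apart but close together, at 144 and 144 CPM against 135 and 143 CPM (0.052 ± 0.14). The 2 subunits of the phenylalanine enzyme had values of different sign. Farsa, the alpha subunit, had a log2 fold change of 0.099, and Farsb, the beta subunit, one of -0.25 ± 0.18, both with overlapping groups. Cars (cysteine) had -0.195, Aars (alanine) -0.15 and Nars (asparagine) -0.050. Tars (threonine) lay nearest to 0 at 0.0006, Wars (tryptophan) had 0.057, Yars (tyrosine) 0.059 and Vars (valine) 0.073. The least abundant of the cytosolic class per kilobase, Wars, was at 70.0 and 74.7 CPM in the controls and at 73.3 and 77.2 CPM after knockdown. The 95% intervals of the class had their lowest end at -0.63, for Farsb, and their highest at 0.69, for Dars.

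Of the mitochondrial enzymes, Yars2 had the highest fold change. This gene encodes the mitochondrial tyrosine enzyme. It stood at 35.2 and 37.2 CPM in the controls and at 44.5 and 53.4 CPM after knockdown. Both knockdown libraries were above both controls, with a log2 fold change of 0.44 ± 0.17 (SE) and a 95% interval of 0.060 to 0.81. The unadjusted p was 0.026 and the edgeR adjusted p 0.36, so it was not called, and over the alternatives the adjusted p ran from 0.078 to 0.92. Its cytosolic partner Yars had 0.059 ± 0.14, with overlapping groups.

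Tars2 was the other mitochondrial member with both knockdown libraries higher, at 141 and 136 CPM against 118 and 126 CPM (0.19 ± 0.14, edgeR adjusted p = 0.64). Pars2, the proline enzyme, and Nars2, the asparagine enzyme, were lower in both knockdown libraries. Pars2 stood at 13.9 and 15.8 CPM in the controls and at 13.8 and 12.1 CPM after knockdown (-0.195 ± 0.23). Nars2 stood at 9.31 and 10.6 CPM in the controls and at 8.73 and 8.36 CPM after knockdown (-0.22 ± 0.26). None of the 3 had an unadjusted p under 0.05. Wars2, the least abundant per kilobase, was at 9.12 and 8.31 CPM in the controls and at 8.51 and 7.43 CPM after knockdown, with overlapping groups (-0.13 ± 0.27).

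The other 10 mitochondrial members overlapped between the groups, with log2 fold changes from -0.079 for Iars2 (isoleucine) to 0.21 for Hars2 (histidine). Between these lay Aars2 (alanine) at -0.051, Sars2 (serine) at 0.012, Ears2 (glutamate) at 0.018, and Mars2 (methionine) at 0.0335. Rars2 (arginine) had 0.040, Cars2 (cysteine) 0.047, Vars2 (valine) 0.061 and Fars2 (phenylalanine) 0.18.

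Lars2, named for the mitochondrial leucine enzyme, stood apart from the family. Its counts were 129552 in control 1, 114051 in control 2, 97923 in knockdown 1 and 86619 in knockdown 2. These counts corresponded to 7881 and 6040 CPM in the controls and 4386 and 4024 CPM after knockdown. Both knockdown libraries lay below both controls. The log2 fold change was -0.73 ± 0.16 (SE), with a 95% interval of -1.08 to -0.37. The unadjusted p was 0.00070 and the edgeR adjusted p 0.12, so it was not called. DESeq2 called it, with an adjusted p of 0.0055, as did edgeR with no filter on low counts (0.0013), where 1.95% of all genes were called. Over all alternatives the fold change stayed negative, from -0.91 to -0.52, and the adjusted p ran from 3.3e-07 to 0.55.

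Reads listed under Lars2 made up 93.5% and 91.6% of all mitochondrial synthetase counts in the controls and 88.4% and 87.3% after knockdown. Per kilobase, its level was 307 and 219 times that of the median of the other 15 mitochondrial members in the controls, and 168 and 138 times after knockdown. Rn45s, the precursor of ribosomal RNA, also had lower values in both knockdown libraries. Rn45s stood at 179100 and 161200 CPM in the controls and at 123000 and 106400 CPM after knockdown (log2 fold change -0.57 ± 0.16, SE; edgeR adjusted p = 0.20). There were 44.0 and 37.5 Lars2 reads for every 1000 Rn45s reads in the controls, and 35.7 and 37.8 after knockdown. That ratio overlapped between the groups, with means of 40.7 ± 4.63 and 36.75 ± 1.53 (SD, n = 2 each). The exact permutation p of that ratio was 0.667 (two-sided), and this design allows no p below 0.333. The share of all tallied reads without a unique alignment, which enter no gene count, was also lower after knockdown, at 28.7% and 26.1% against 32.8% and 30.2%. How many of the Lars2 reads came from ribosomal RNA was not tested, so its level cannot be read as that of the mitochondrial enzyme's message.

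**Figure D3:**
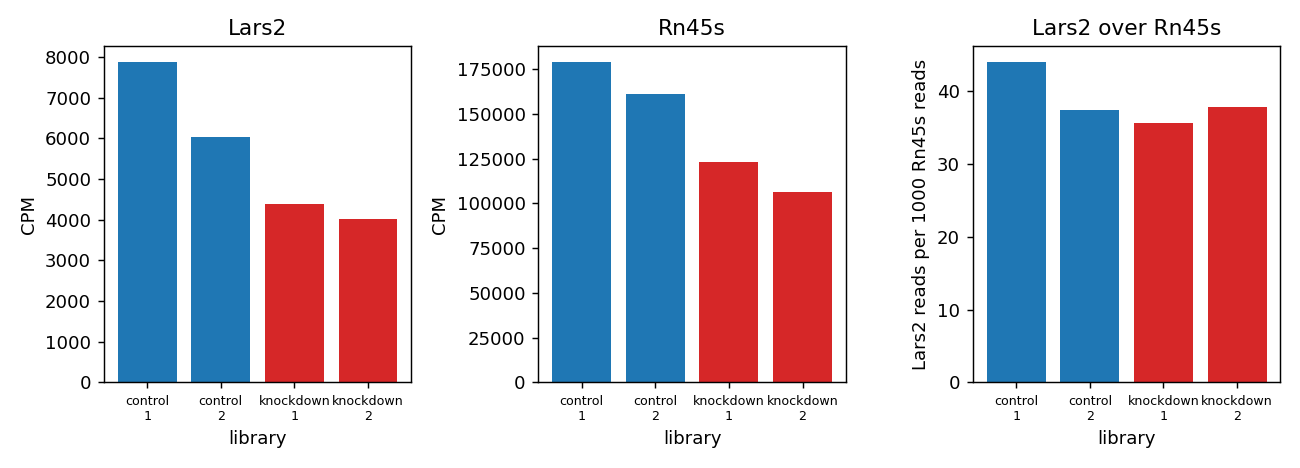
Lars2 and Rn45s in each library, in CPM, and the number of Lars2 reads for every 1000 Rn45s reads. Bars are single libraries, blue for control and red for knockdown, and all axes start at 0. Lars2 and Rn45s are both lower in the 2 knockdown libraries, whereas their ratio, between 35.7 and 44.0, overlaps.

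The partners of the enzymes gave few differences, and none was called by edgeR, whose adjusted p was lowest for Eef1g. The 3 scaffold genes of the multisynthetase complex all had fold changes above 0, with a median of 0.25 and none at an unadjusted p under 0.05. Of these Aimp2 had the lowest p, at 110 and 144 CPM in the controls and 161 and 151 CPM after knockdown (log2 fold change 0.30 ± 0.16, SE). The 4 genes that complete charging in mitochondria, 3 for the amidotransferase that makes glutaminyl-tRNA and Mtfmt for the formylation of methionyl-tRNA, had a median of 0.16. Pet112, the older symbol of the amidotransferase subunit gene Gatb, had the lowest p of them, at 0.29 ± 0.25. Of 7 genes for editing, for tRNA release or related to the enzymes, 6 had fold changes above 0. The exception, Tarsl2, a relative of the threonine enzyme, had -0.037 ± 0.28 with overlapping groups. Prorsd1, a relative of the bacterial editing domain for proline tRNA, was at 11.3 and 11.5 CPM in the controls and at 18.1 and 16.9 CPM after knockdown (0.61 ± 0.22, edgeR adjusted p = 0.32). Ptrh2, a peptidyl-tRNA hydrolase gene, had 0.37 ± 0.17 (adjusted p = 0.42).

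Selenocysteine is made on a tRNA that the serine enzyme charges first. Sepsecs, the last enzyme of that route, was at 15.45 and 11.9 CPM in the controls and at 9.05 and 8.27 CPM after knockdown. Both knockdown libraries lay below both controls (-0.66 ± 0.25, edgeR adjusted p = 0.35). Pstk, the kinase before it, had 0.30 ± 0.19. Of the 6 factors that carry charged tRNA to the ribosome or reload that carrier, 3 were above 0 and 3 below, with a median of 0.021. Eef1g, a subunit of the cytosolic exchange factor, was at 1641 and 1728 CPM in the controls and at 2411 and 2371 CPM after knockdown (0.51 ± 0.14, adjusted p = 0.19).

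Of the amino acid response genes, 19 of 20 were tested, and 11 had fold changes above 0 and 8 below, with a median of 0.23. No member was called. In 2 both knockdown libraries lay above both controls and in 2 both lay below, beside 22.3% and 21.3% of all genes. Asns, the asparagine synthetase gene and a classic ATF4 target, had the only unadjusted p under 0.05, beside 11.6% of all tested genes. It stood at 218 and 209 CPM in the controls and at 280 and 318 CPM after knockdown, so that the groups lay apart (0.49 ± 0.14, SE; edgeR adjusted p = 0.21). Nars, which consumes the same amino acid, had overlapping groups.

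Libraries of the same group differed from each other more than the groups did in several of these genes. Atf4 stood at 196 CPM in control 1 and 343 CPM in control 2, and at 300 and 496 CPM in knockdown 1 and 2. Chac1, a glutathione-degrading ATF4 target, was at 6.81 and 22.5 CPM in the controls and at 8.69 and 33.0 CPM after knockdown. Of the 19 tested amino acid response genes, 17 were higher in control 2 than in control 1, and 16 were higher in knockdown 2 than in knockdown 1. Over all tested genes these shares were 51.5% and 50.6%.

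Among the synthetases these counts differed with membership in the complex. Outside the complex, 10 of the 12 cytosolic members were higher in control 2 than in control 1, and 8 of 12 were higher in knockdown 2 than in knockdown 1. In the complex these counts were 0 of 8 and 3 of 8, and among the mitochondrial members 9 of 16 and 7 of 16. Cars was at 103 and 127 CPM in the controls and at 86.9 and 114 CPM after knockdown. Aars, the member with the highest CPM after Lars2, was at 542 and 638 CPM in the controls and at 505 and 559 CPM after knockdown. Both were higher in the libraries numbered 2, as Atf4 was. Vars, whose enzyme binds the elongation factor complex, ran the other way, at 421 and 330 CPM in the controls and at 442 and 348 CPM after knockdown. The counts were made after the values were seen, and no test of the division was made.

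**Figure D4:**
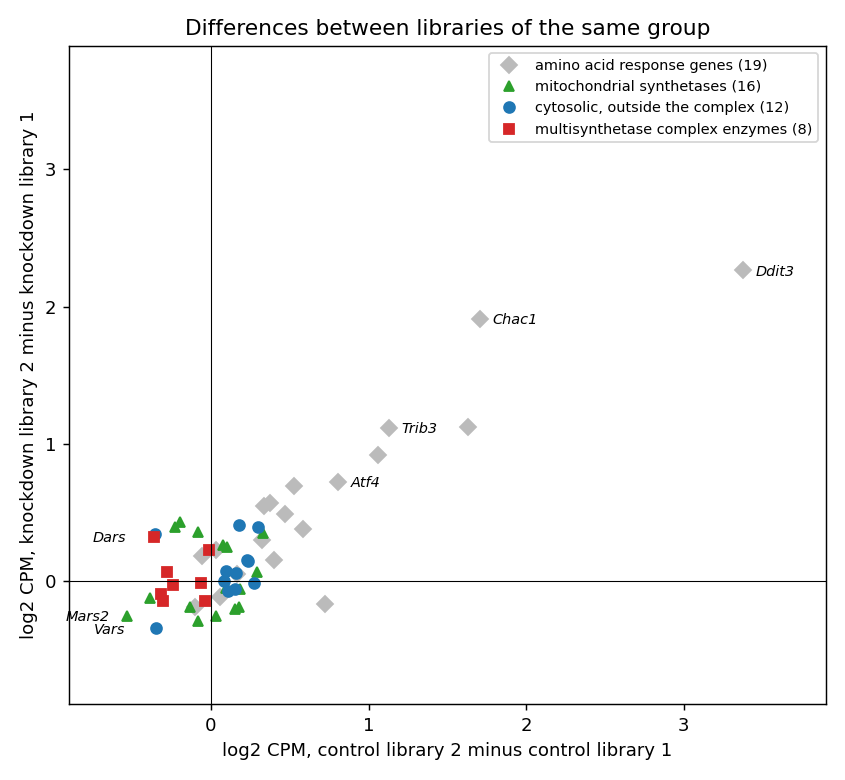
Differences between the 2 libraries of the same group, as log2 CPM of library 2 minus library 1, for the controls (horizontal axis) and the knockdown libraries (vertical axis). Each point is a gene, coloured by class. Of the labelled genes, Ddit3, Chac1, Trib3 and Atf4 lie to the upper right, as do the unlabelled Nupr1 and Atf5, and all 8 complex enzymes lie left of 0 on the horizontal axis.

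Promoter windows were available for 27 of the 36 members, each with 250 bases before and 50 after the start site annotated by RefSeq on GRCm38.p6. The core of the element that ATF4 binds with C/EBP proteins, TGATGNAA, was searched on both strands (TTNCATCA on the reverse strand). It was present in 5 of 13 cytosolic and 0 of 14 mitochondrial genes with a window. Each gene was counted once, however many windows it had. The share over all was counted by window, at 3.97% of 32851 windows of that length. Among amino acid response genes it was present in 6 of 18, Asns, Trib3, Chac1, Slc7a11, Nupr1 and Pycr1. The 5 cytosolic windows are shown because they hold the match, with that of Yars2 as the mitochondrial counterpart of Yars and the member with the highest fold change. They run 5′ to 3′ on the strand of the gene, and capitals mark the matches. They lie at chr8:111033592-111033891 on the plus strand for Aars, chr6:55037751-55038050 on the plus strand for Gars and chr13:49681880-49682179 on the plus strand for Iars. The others lie at chr15:11399609-11399908 on the minus strand for Tars, chr4:129189653-129189952 on the plus strand for Yars and chr16:16302715-16303014 on the plus strand for Yars2.
Aars: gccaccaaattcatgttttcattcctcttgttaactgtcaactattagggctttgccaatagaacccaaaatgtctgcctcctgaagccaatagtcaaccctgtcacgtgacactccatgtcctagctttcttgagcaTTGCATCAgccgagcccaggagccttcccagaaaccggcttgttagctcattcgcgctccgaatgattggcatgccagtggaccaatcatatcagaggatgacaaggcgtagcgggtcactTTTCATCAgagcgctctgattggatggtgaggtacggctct
Gars: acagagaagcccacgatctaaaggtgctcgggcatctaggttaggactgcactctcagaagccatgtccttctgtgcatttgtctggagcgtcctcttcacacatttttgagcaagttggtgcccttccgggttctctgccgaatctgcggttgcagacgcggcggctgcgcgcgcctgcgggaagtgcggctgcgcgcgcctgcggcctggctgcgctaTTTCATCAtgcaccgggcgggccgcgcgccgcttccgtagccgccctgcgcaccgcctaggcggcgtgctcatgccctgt
Iars: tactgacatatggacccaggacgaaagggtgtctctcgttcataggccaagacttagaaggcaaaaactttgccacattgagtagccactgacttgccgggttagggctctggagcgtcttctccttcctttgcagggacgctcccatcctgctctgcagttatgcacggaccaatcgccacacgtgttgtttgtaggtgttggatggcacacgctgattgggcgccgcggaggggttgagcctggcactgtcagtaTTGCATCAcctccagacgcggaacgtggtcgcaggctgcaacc
Tars: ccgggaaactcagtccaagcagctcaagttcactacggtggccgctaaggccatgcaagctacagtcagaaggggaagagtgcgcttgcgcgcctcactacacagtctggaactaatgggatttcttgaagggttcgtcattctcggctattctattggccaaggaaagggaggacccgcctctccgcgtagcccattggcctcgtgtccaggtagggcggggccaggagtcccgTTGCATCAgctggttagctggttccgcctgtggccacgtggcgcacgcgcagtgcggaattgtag
Yars: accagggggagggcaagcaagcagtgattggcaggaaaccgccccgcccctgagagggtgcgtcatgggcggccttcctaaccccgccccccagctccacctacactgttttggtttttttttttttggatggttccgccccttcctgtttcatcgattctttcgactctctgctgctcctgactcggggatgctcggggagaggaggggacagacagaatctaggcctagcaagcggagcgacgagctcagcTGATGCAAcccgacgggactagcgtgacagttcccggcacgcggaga
Yars2: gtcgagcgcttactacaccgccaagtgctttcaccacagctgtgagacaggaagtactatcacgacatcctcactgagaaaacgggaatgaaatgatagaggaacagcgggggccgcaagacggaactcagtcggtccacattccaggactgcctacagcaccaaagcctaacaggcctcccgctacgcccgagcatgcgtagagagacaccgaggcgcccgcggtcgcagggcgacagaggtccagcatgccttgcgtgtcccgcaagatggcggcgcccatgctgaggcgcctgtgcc

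The matches began 112 bases before and 9 bases after the start site in Aars, 30 bases before it in Gars and 15 bases before it in Tars. They began 7 bases after it in Iars and 3 bases after it in Yars. In the main fit the 5 genes did not share a direction after knockdown. Gars, Tars and Yars had fold changes above 0, and Aars and Iars below. That split depended on the setting. With the correction by length and GC content all 5 were above 0. Their log2 fold changes were then 0.034 for Aars, 0.15 for Gars, 0.040 for Iars, 0.018 for Tars and 0.092 for Yars. Gars was -0.019 without knockdown 2, and Yars -0.018 without control 1. Tars turned negative, by at most 0.054, under 7 of the alternatives. Aars, Gars and Yars were higher in library 2 than in library 1 of both groups, whereas Iars and Tars were not. The motifs searched and the same amino acid pairs were chosen after values were seen. The E-box CACGTG was in 4 of 13 cytosolic and 1 of 14 mitochondrial genes with a window (7.15% of all windows). The ETS motif CCGGAAGT was in 2 and 1 (3.89% of all windows). The NRF1 consensus was in 3 and 2 (4.6% of all windows). The E-box and the ATF4 element occurred together in Aars, Iars and Tars, at bases that did not overlap. A match describes letters in the window and is no measure of binding. Cars, Hars, Lars, Nars, Rars, Vars, Wars, Hars2 and Pars2 had no window in the table.

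Shared sequence limited a few of the counts. Identical bases between any transcripts of the 17 same amino acid pairs were searched on both strands. In 16 pairs the longest stretch was 12 to 20 bases. For Hars and Hars2 it was at least 60 bases, the longest stretch searched for. Hars and Hars2 lie on opposite strands and share 195 exonic bases in the GENCODE annotation. That overlap alone could give the 60-base match, so a stretch shared in the same direction was not shown. Exons of 9 members overlapped those of another gene in the files, in 8 on the opposite strand. Mars, for example, overlaps Ddit3 by 68 bases, and Aars overlaps Exosc6 by 1326 bases on the same strand. The strand setting of the counting was not given in the sources used here, and reads in such overlaps may have been left out or counted for either gene.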

How the data were processed

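Polyadenylated RNA was sequenced by a strand-specific dUTP method, per the labels' protocols. The authors deposited raw read counts per gene symbol, 1 file per library. TopHat, HTSeq, SAMtools, bedtools and build mm9 are named in the submitters' processing notes, with tool versions, annotation and strand mode not given in the sources used here. The 5 closing tallies that name no gene were left out. Reads outside genes were 6.39% to 7.61% of all tallied reads, ambiguous reads 0.459% to 0.600% and reads without a unique alignment 26.1% to 32.8%.

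Counts were tested with edgeR 4.0.16 (R 4.3.3): filterByExpr (minimum count 10), TMM factors (0.976 to 1.04), robust glmQLFit and glmQLFTest, two-sided, with Benjamini-Hochberg adjustment over 13199 genes at 0.05. Group was the only term. The biological coefficient of variation was 17.4%. Log CPM used a prior count of 2. Counts were also simulated (13037 genes tested), with the same dispersion for every gene and no change set in the least abundant genes. In these the fit called 8 of 68 genes changed 1.5-fold, 38 of 67 changed 2-fold and 65 of 65 changed 4-fold. It also called 8 unchanged genes. Real genes differ in dispersion, so these shares need not hold for them. Transcript lengths came from GENCODE M21 (GRCm38) for 98.4% of symbols and all 36 members, which also gave GC content and exon overlaps but no printed coordinates. Promoters came from RefSeq, with Mars matched as Mars1.

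Groups and numbers came from the sample titles. The design text calls the libraries biological replicates without saying how cultures were separated, so p-values reflect only how these libraries vary. Chi-square divided by degrees of freedom was 25.36 for the control pair and 20.54 for the knockdown pair, beyond sampling noise.

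Members and lists were chosen with earlier results of these data known. All 36 members are given, with values in every library for those at an unadjusted p under 0.05, the extremes of fold change and level per class, Lars2, Gars and Kars, and with the lowest p values of each partner list. Members whose groups did not overlap, Cars, Aars, Vars, Atf4 and Chac1, the bound of 1.25-fold and the counts of differences between libraries were chosen after values were seen. Alternatives were RLE (as in DESeq2), upper-quartile and no composition factors, other filters, DESeq2 1.42.0, limma-voom (limma 3.58.1), no robust estimation, a replicate block, an offset for length and GC content, leaving out Rn45s and Lars2, and leaving out each library.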

Additional observations from a re-analysis of the deposited data

How the results depend on the processing

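With 2 libraries a group, the 95% interval of each gene holds the differences that remain compatible with these libraries. Low-count members such as Wars2 and Nars2 had the widest intervals. No alternative called a member other than Lars2, for which the number of members called lower was 1 with no filter (adjusted p = 0.0013), by DESeq2 (0.0055), with the replicate block (3.3e-07) and with the block and the length and GC offset (0.011); it was 0 otherwise. The shared replicate numbers were not shown to pair the libraries (correlation of their deviations 0.24 over all genes, from 2 pairs), and the block moved the calls over all genes from 5 higher and 6 lower to 504 and 451, or 351 and 293 with the offset. The Cyrano log2 fold change was -2.42 by limma-voom (adjusted p = 0.051) and -2.79 to -2.08 with each library left out, where it was not called without control 1 (0.12) or control 2 (0.057). The cytosolic median was 0.049 with library size only. The mitochondrial median was 0.021 with RLE factors, 0.0061 with upper-quartile factors, 0.080 with library size only, 0.021 by DESeq2, 0.021 with the replicate block and offset, 0.0335 without Lars2 and -0.032 to -0.0094 with each library left out. The cause of these moves was not tested.

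Of 575 fold changes of members under an alternative, 57 changed sign, in 21 members whose main values lay within 0.21 of 0. Tars was -0.0029 with RLE factors, -0.020 with upper-quartile factors, -0.00062 with the CPM filter, -0.0029 by DESeq2 and -0.0051 without Rn45s and Lars2. With upper-quartile factors Sars2 was -0.0094 and Ears2 -0.0022. With library size only Nars was 0.0050, Rars 0.045, Iars 0.034, Lars 0.0325 and Aars2 0.00075. With the length and GC offset Aars was 0.034, Hars -0.016, Iars 0.040, Lars 0.0035, Sars2 -0.031, Aars2 0.0072, Iars2 0.0012 and Rars2 -0.14. With that offset and the replicate block Aars was 0.0315, Hars -0.016, Iars 0.044, Lars 0.0047, Sars2 -0.031, Aars2 0.0051 and Rars2 -0.14.

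With each library left out in turn, the ranges were -0.019 to 0.38 for Gars, -0.088 to 0.12 for Mars, -0.12 to 0.26 for Vars, -0.018 to 0.14 for Yars, -0.16 to 0.069 for Nars, -0.13 to 0.12 for Rars, -0.054 to 0.055 for Tars, -0.16 to 0.12 for Iars, -0.31 to 0.0086 for Eprs and -0.17 to 0.14 for Lars. They were -0.13 to 0.165 for Sars2, -0.066 to 0.15 for Cars2, -0.19 to 0.078 for Aars2, -0.26 to 0.082 for Iars2, -0.165 to 0.22 for Rars2, -0.11 to 0.13 for Ears2, -0.10 to 0.20 for Vars2, -0.016 to 0.40 for Hars2 and -0.21 to 0.32 for Mars2. Where an arm had 1 library, it was assumed to vary like the other arm. Levels per kilobase depended on the length used: with the median transcript length Gars was at 441 in place of 155, and Aars was the highest of the cytosolic class, at 695, while Mars2 was the lowest of the mitochondrial class, at 3.58.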
